A study of Homo sapiens with 18 samples.

Results

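THP-1 cells that had received a small interfering RNA (siRNA) against TRAFD1 (KD) were compared with THP-1 cells that had received no siRNA (WT), both after lipopolysaccharide (LPS). The 6 libraries were KD replicates 4, 5 and 6 and WT replicates 4, 5 and 6, taken by their labels from the 18 libraries of the series, and every gene that passed a filter on low counts was examined. THP-1 is an established human cell line from an acute monocytic leukaemia. KD cells were transfected with 25 nM siRNA and, at 72 h, given LPS from E. coli at 10 ng/ml for 4 h. WT cells received the same LPS, but the labels differ on their earlier handling: the sample protocols describe the transfection mix lacking siRNA, whereas the series text calls the cells untreated. Reagent and siRNA effects therefore cannot be told apart between KD and WT. The other LPS set, SCR, had received 25 nM of a non-targeting siRNA of undisclosed sequence (n = 3), and its values are given beside those of KD and WT. The same 3 conditions in medium without LPS (n = 3 each) entered the model for the spread and the comparison of LPS with medium. Cultures were grown in triplicate per the labels, and nothing further says how independent they were, so that p-values measure the spread between these libraries.

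TRAFD1, also called FLN29, is a zinc finger protein that interferon and LPS induce and that is known as a brake on Toll-like receptor and NF-kB signalling. LPS is sensed by TLR4, which signals through IRAK kinases to NF-kB and MAP kinases and through TRIF to interferon regulatory factors. TNF, chemokines and the NF-kB inhibitor NFKBIA are early products, and secreted interferon then drives interferon-stimulated genes. An siRNA guide directs cleavage of fully matched transcripts, and its seed, bases 2 to 8, can also lower other transcripts that pair with the seed alone.

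The siRNA decides which transcript is cut, so its sequence and its place in TRAFD1 are shown first. In the target, capitals mark the 7 bases that pair with the guide seed, and in the guide, capitals mark the seed itself. The guide is written on the usual layout, antisense to the last 19 bases of the 21-base target, which the labels do not state.
siRNA target: cccagccgacccaTTAACAAt
siRNA guide: aUUGUUAAugggucggcug
TRAFD1 around the site: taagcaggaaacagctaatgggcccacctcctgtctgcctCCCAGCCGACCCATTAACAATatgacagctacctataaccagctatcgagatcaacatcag
The last line is the plus strand of GRCh37 at chr12:112589636-112589736, with the target in capitals. The site, chr12:112589676-112589696, lies in coding exon 10 of 12. Among the annotated transcripts, 2 held the whole target and both belonged to 1 gene, TRAFD1. The site ended 1191 bases before the end of the canonical transcript, so that it lay upstream of the 3-prime end from which these libraries were read.

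TRAFD1 (ENSG00000135148, chromosome 12, 112563342 to 112591408) was only slightly lower in KD than in WT after LPS, by an amount within the spread of the WT libraries. Levels are given as CPM, counts divided by the TMM-scaled library size in units of 1e06 reads. KD replicates 4, 5 and 6 were at 15.8, 13.98 and 13.8 CPM and WT replicates at 19.2, 20.3 and 11.6 CPM. The groups overlapped, because WT replicate 6 lay below all 3 KD libraries. The log2 difference was -0.23 (SE 0.23, adjusted p = 0.563), with means of 14.5 ± 1.12 CPM in KD and 17.0 ± 4.76 CPM in WT (SD, n = 3 each). SCR libraries with LPS were at 21.9, 27.5 and 18.7 CPM, above every KD library, and KD minus SCR was -0.65 (SE 0.22, adjusted p = 0.262). In medium the log2 difference between KD and WT was -1.23 (SE 0.23, adjusted p = 0.00156), and the test of LPS minus medium gave 1.00 (SE 0.32, adjusted p = 0.169). With p-values adjusted over all genes, a lower level of the target is thus not established in the KD libraries with LPS. The study itself reported a significant decrease of TRAFD1 in KD by western blot and qPCR. In its RNA sequencing, the decrease against SCR was significant in unstimulated cells and not significant with LPS. The groups are named by their labels below.

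Total counts ran from 10094675 to 17065865 in the 6 libraries, where a floor of 3 counts equals 0.176 to 0.297 CPM and covers counting error only. The median absolute log2 difference between 2 libraries over all genes was 0.212 to 0.230 within KD, 0.199 to 0.253 within WT and 0.293 to 0.411 between KD and WT. Mitochondrial genes held 3.82% to 5.14% of counts. Among 20 monocyte markers, whose summed level was 2660 to 2898 CPM in KD and 2322 to 2731 CPM in WT, the defining CD14 was low (8.52 to 16.2 CPM) and FCN1 was at 0 in all 6 libraries. CTSG, ELANE and PRTN3, granule proteases of immature myeloid cells, were present at 122 CPM or more. MPO, from the same list, was at 0.175 to 1.56 CPM. Other members were well measured, with FCGR1A at 253 to 295, MS4A7 at 249 to 349 and CD68 at 59.7 to 98.2 CPM. Of 10 T and NK cell, 7 B cell, 9 erythroid and platelet and 10 epithelial and fibroblast markers, 3, 3, 1 and 2 were tested, and the smallest adjusted p among them was that of PAX5 (0.0794). The summed levels in KD and WT were 10.5 to 12.1 and 12.7 to 19.4 CPM for T and NK cells, 49.8 to 53.6 and 37.4 to 45.2 CPM for B cells, 0.533 to 1.02 and 0.681 to 1.09 CPM for erythroid cells and platelets, and 1.80 to 2.18 and 2.67 to 4.99 CPM for epithelial cells and fibroblasts. PAX5 made up most of the B cell sum, at 45.0 to 49.9 CPM in KD and 32.5 to 41.5 CPM in WT, while JCHAIN was at 0.

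One feature set the 3 KD libraries apart from WT before any single gene is named. EEF1A1, an elongation factor of translation, has many processed pseudogenes, intronless copies of its mRNA, and reads of such copies and of the parent gene can be exchanged in counting. The summed level of 47 of these pseudogenes (EEF1A1P5 left out, since it has nearly the level of EEF1A1 itself) was 1736, 2395 and 959 CPM in KD replicates 4, 5 and 6 and 70.9, 67.2 and 41.2 CPM in WT. In the other groups with an siRNA it differed between replicates. It was also high in 1 of 3 KD libraries in medium (1246 CPM in replicate 1, against 75.8 and 66.7 CPM) and in 1 of 3 SCR libraries with LPS (1115 CPM in replicate 5, against 217 and 78.4 CPM). SCR libraries in medium were at 117, 123 and 209 CPM and WT libraries in medium at 175, 60.8 and 47.5 CPM. All libraries with the high level had thus received an siRNA, and its origin was not tested. EEF1A1 itself was at 7438, 7867 and 6923 CPM in KD and 5207, 5801 and 4163 CPM in WT. Within the 6 libraries compared here, this level and the siRNA cannot be told apart.

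**Figure D1:**
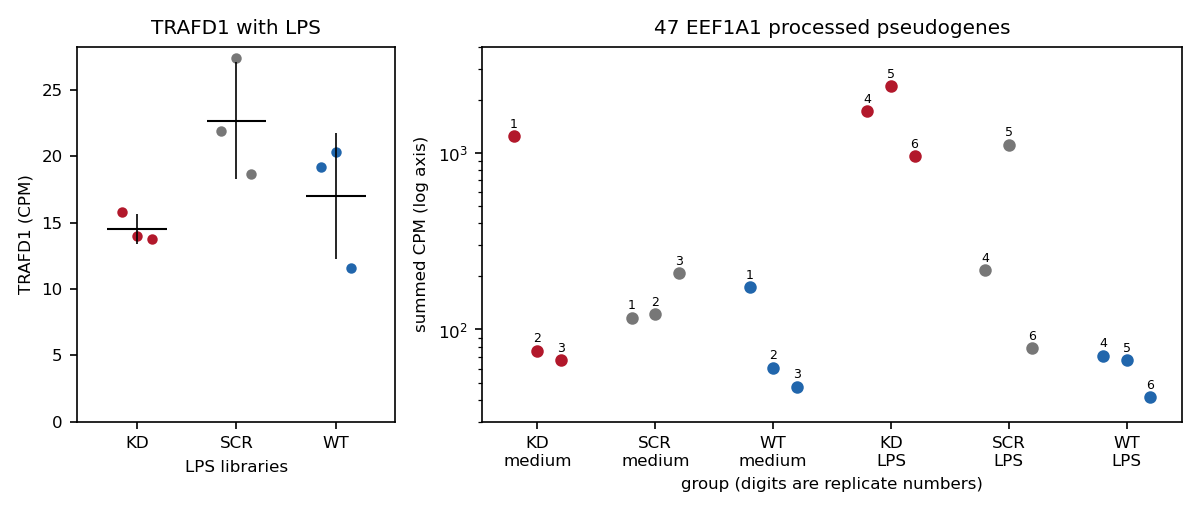
Left, TRAFD1 in CPM in the 9 LPS libraries (points), with the mean (horizontal line) and SD (vertical line) of each group: KD lay between 13.8 and 15.8 and overlapped WT at 11.6 to 20.3. Right, summed CPM of 47 EEF1A1 processed pseudogenes in all 18 libraries on a log axis, each point labelled with its replicate number: all 3 KD libraries with LPS, KD replicate 1 in medium and SCR replicate 5 with LPS lay at 959 or above, the other 13 at 217 or below.

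Of 16678 genes tested, 1808 differed between KD and WT with LPS (edgeR quasi-likelihood test, Benjamini-Hochberg adjusted p under 0.05), which is 10.8% of the genes. In KD, 1049 genes (6.29%) were higher and 759 (4.55%) lower, and these shares are the background for every list below. The shares rose with the level of a gene. Of the 4170 genes with the lowest mean CPM over the 6 libraries, 1.51% were higher and 0.62% lower. Of the 4170 with the highest, 10.0% were higher and 11.1% lower, so that lists of highly expressed genes have a higher background than the shares over all genes. The groups did not overlap for 1795 of the 1808, against 35.0% of all genes tested. Higher genes differed by more: their median log2 difference was 0.80 and 351 exceeded 1, against -0.52 and 69 beyond -1 among lower genes. The median over all genes was 0.004. In bulk samples such as these, fewer cells of a kind and less RNA per cell cannot be told apart. The result leaned on single libraries, since the count was 376 (160 higher, 216 lower) without WT replicate 6 and 596 without KD replicate 5.

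The pseudogene level moved with many of these genes in libraries outside the comparison. In medium, KD replicate 1, with the high level, was above the mean of KD replicates 2 and 3 for 954 of the 1049 genes higher in KD (90.9%) and for 154 of the 759 lower genes (20.3%), against 51.2% of all genes. With LPS, SCR replicate 5 was above the mean of SCR replicates 4 and 6 for 85.6% of the higher and 31.2% of the lower genes, against 52.7% of all. These are comparisons of 1 library with 2, with no test. When the log2 pseudogene level of each library was added to the model, an alternative chosen after the data were seen, 12 genes passed (6 higher, 6 lower), 9 of them among the 1808. The median log2 difference of the 1049 higher genes was then 0.16 and that of the 759 lower genes -0.31, and the median SE over all genes was 0.31 in place of 0.22. Across the gene lists described below, PIM2 and GDF15 were the members past the threshold in that model, in which 1820 genes had an unadjusted p under 0.05 and to which DESeq2 was not applied. Values from this model are given below as "with the pseudogene term". TRAFD1 was at -0.96 in it (SE 0.28, adjusted p = 0.168). The part of the pseudogene level in each difference was not tested further.

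**Figure D2:**
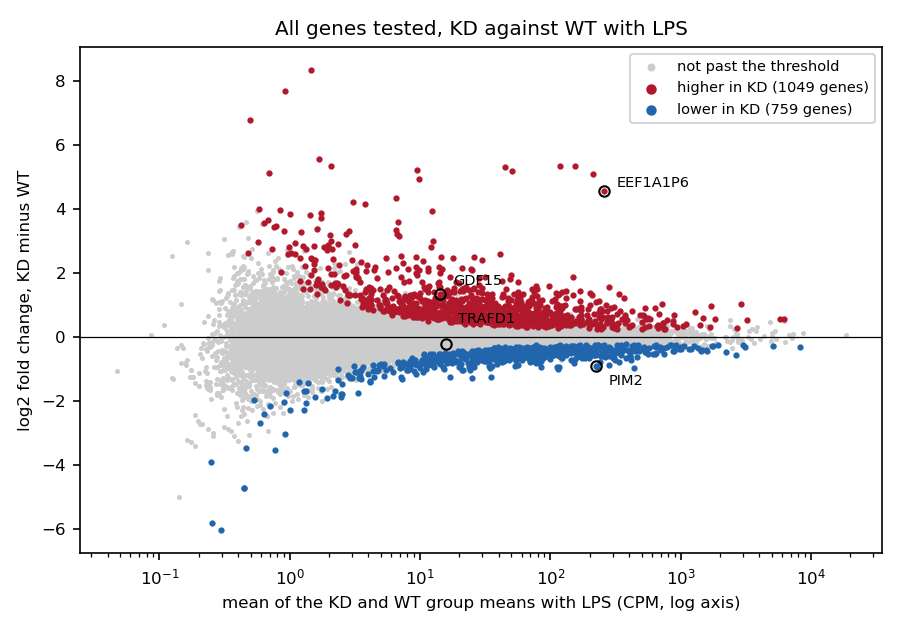
Log2 difference KD minus WT with LPS (vertical axis) against mean CPM (horizontal axis, log scale) for the 16678 genes tested. Red points are the 1049 genes higher in KD, blue points the 759 lower and grey points the others. TRAFD1 lies among the grey points at -0.23, PIM2 at -0.91 and GDF15 at 1.35, and EEF1A1P6, a pseudogene of EEF1A1, at 4.54.

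By adjusted p, the foremost of the lower genes included the kinases PIM2 and AKT2, the transcription factor POU2F2 and the cytokine LTB. Genes named for the smallest adjusted p, in either direction, were taken from those whose KD and WT libraries did not overlap. Their separation thus follows from the choice. PIM2, a serine/threonine kinase that promotes survival (chromosome X, 48770459 to 48776301), was at 161, 156 and 146 CPM in KD and 322, 281 and 267 CPM in WT. The KD libraries lay close together and well under every WT library. The log2 difference was -0.91 (SE 0.09, adjusted p = 2.08e-05), and with the pseudogene term it was -0.83 (SE 0.13, adjusted p = 0.0161), 1 of the few calls kept in that model. AKT2, a kinase of insulin and growth factor signalling, was at 309, 285 and 286 CPM in KD and 601, 520 and 614 CPM in WT. Its difference was -0.98 (SE 0.11, adjusted p = 0.000119), and -0.62 (adjusted p = 0.0805) with the pseudogene term. SCR lay between KD and WT for both genes, at 191 to 211 CPM for PIM2 and 322 to 362 CPM for AKT2.

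POU2F2 (Oct-2), a transcription factor of B cells and macrophages, was at 347, 292 and 297 CPM in KD and 525, 513 and 509 CPM in WT (log2 difference -0.73, SE 0.10, adjusted p = 0.000441). LTB, the cytokine lymphotoxin beta, was at 201, 203 and 194 CPM in KD and 350, 346 and 405 CPM in WT (-0.88, SE 0.12, adjusted p = 0.000441). For both, the 2 groups were separated by a wide gap. PTPN1, a phosphatase that acts on JAK kinases and the insulin receptor, was lower by a similar amount (-0.78, SE 0.10, adjusted p = 0.000441), as was PPP1R10, a nuclear regulator of protein phosphatase 1 (-0.82, SE 0.11, adjusted p = 0.000441). GPD2, the mitochondrial glycerol-3-phosphate dehydrogenase, was at 241 ± 14.1 CPM in KD and 380 ± 3.49 CPM in WT (-0.66, SE 0.08, adjusted p = 0.000403). SCR values for LTB (213 to 236 CPM) and GPD2 (242 to 260 CPM) lay near KD, whereas those for PPP1R10 (71.9 to 92.8 CPM) lay nearer WT. With the pseudogene term these 5 differences ran from -0.53 (GPD2) to -0.61 (PPP1R10), with adjusted p from 0.104 to 0.144.

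Among lower transcripts that code for no protein, LINC00926 was at 24.6, 17.94 and 20.1 CPM in KD and 48.3, 48.2 and 51.9 CPM in WT (-1.25, SE 0.15, adjusted p = 0.000248). MIR1915HG was also lower (-0.99, SE 0.14, adjusted p = 0.000866), as was the long non-coding RNA ENSG00000242861 (-0.75, SE 0.10, adjusted p = 0.000732). The last of these kept its call with the pseudogene term (-0.92, SE 0.16, adjusted p = 0.0185). The protein-coding genes with the largest decreases at a mean of 5 CPM or more were OLFML3, a secreted glycoprotein (-1.32, SE 0.27, adjusted p = 0.00521), ACACB, the mitochondrial acetyl-CoA carboxylase (-1.26, SE 0.17, adjusted p = 0.000528), KCP, a secreted BMP modulator (-1.25, SE 0.31, adjusted p = 0.0163), and SULT1A3, a sulfotransferase with a near-identical copy in the genome, so that its counts are uncertain (-1.17, SE 0.26, adjusted p = 0.00792). KCP lost its call without KD replicate 5 or 6 or WT replicate 4 or 6 (adjusted p up to 0.0727).

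Among the higher genes, the smallest adjusted p belonged to a set that included GDF15, EMP3, ODC1 and LDHA. GDF15, a stress-induced cytokine of the TGF-beta family (chromosome 19, 18485541 to 18499986), was at 19.7, 18.8 and 23.0 CPM in KD and 8.46, 7.10 and 8.62 CPM in WT. No WT library came near the KD range, and the 3 SCR libraries (17.7, 22.9 and 19.9 CPM) lay within or beside it. The log2 difference was 1.35 (SE 0.20, adjusted p = 0.000866), and KD minus SCR was 0.02 (SE 0.19). With the pseudogene term GDF15 had the smallest adjusted p of all genes (1.73, SE 0.27, adjusted p = 0.0151). EMP3, a small membrane glycoprotein, was at 52.9, 75.5 and 72.4 CPM in KD and 26.9, 21.8 and 22.04 CPM in WT (1.51, SE 0.23, adjusted p = 0.000926). Unlike GDF15, EMP3 was near the WT level in SCR (26.1 to 31.2 CPM), and KD minus SCR was 1.21 (SE 0.23, adjusted p = 0.0659). With the pseudogene term EMP3 stayed at 1.63 (SE 0.32, adjusted p = 0.0472).

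ODC1, the rate-limiting enzyme of polyamine synthesis, was at 91.2, 79.6 and 73.6 CPM in KD and 41.8, 53.3 and 47.7 CPM in WT (0.77, SE 0.12, adjusted p = 0.000866). LDHA, which reduces pyruvate to lactate, was at 303, 297 and 344 CPM in KD and 180, 193 and 142 CPM in WT (0.87, SE 0.14, adjusted p = 0.0011). Neither gene had a KD library within the WT range, which the choice of these genes required. RPRD1B, which binds the tail of RNA polymerase II (1.51, SE 0.23), MZT1, a component of the gamma-tubulin ring (1.15, SE 0.18), MXI1, a MYC antagonist (0.92, SE 0.15), and the ribosomal protein RPS25 (0.67, SE 0.11) were also higher, with adjusted p from 0.000866 to 0.00116. With the pseudogene term the differences of these 6 genes were 0.20 to 0.70, with adjusted p from 0.171 (MXI1) to 0.49 (RPS25). Among transcripts that code for no protein, the pseudogene MTND4P12 (0.94, SE 0.15), whose counts can hold reads of mitochondrial ND4, and the unnamed ENSG00000228981 (0.90, SE 0.14) were among those with the smallest adjusted p.

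The protein-coding genes with the largest increases at 5 CPM or more were low in WT, and 3 of the 4 varied there. PPP4C, a protein phosphatase, was at 11.4, 16.1 and 9.45 CPM in KD and 2.92, 2.51 and 0.881 CPM in WT (2.54, SE 0.58, adjusted p = 0.0102). ZSCAN25, a zinc finger gene (2.46, SE 0.74, adjusted p = 0.0381), CD9, a tetraspanin (2.19, SE 0.64, adjusted p = 0.0332), and GRAMD4, a lipid-binding protein at 2.14 to 2.64 CPM in WT (2.16, SE 0.60, adjusted p = 0.0259), followed. CD9 showed the pattern most plainly, with 20.9, 26.2 and 21.3 CPM in KD, 5.93, 7.94 and 0.979 CPM in WT and 7.69, 23.1 and 3.83 CPM in SCR, where the high value is that of replicate 5. All 4 lost their calls without WT replicate 6 (adjusted p up to 0.16 over the libraries left out; PPP4C 0.0712), and ZSCAN25, CD9 and GRAMD4 also without KD replicate 4 or 5 or WT replicate 4, ZSCAN25 and CD9 without KD replicate 6 and GRAMD4 without WT replicate 5. With the pseudogene term they were at 0.01 (PPP4C), -0.44 (ZSCAN25), -0.64 (CD9) and -0.39 (GRAMD4).

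The other genes that passed with the pseudogene term were named after their values were seen. DRAM1, a lysosomal regulator of autophagy, was at 62.1, 58.0 and 55.0 CPM in KD, 115, 110 and 109.9 CPM in WT and 72.3 to 88.8 CPM in SCR. SCR lay between the other groups, and KD minus WT was -0.94 (SE 0.14, adjusted p = 0.000866) without and -1.04 with the term (adjusted p = 0.0472). GAS5, a non-coding host of small nucleolar RNAs, was at 291, 278 and 307 CPM in KD and 205, 205 and 181 CPM in WT (0.57 without and 0.70 with the term). Both calls held with each library left out. SERPINE2, a secreted protease inhibitor, was lower in all KD libraries (53.6, 63.5 and 53.3 CPM) than in WT (90.6, 94.1 and 76.9 CPM), at -0.62 without (adjusted p = 0.0149, and up to 0.0578 without KD replicate 4 or 6) and -1.11 with the term. NDUFB7, a subunit of respiratory complex I, was at 0.82 (adjusted p = 0.0292) and 1.59, and lost the first call when any library except KD replicate 4 was left out (up to 0.115). ENSG00000112096, which has no entry in the annotation used here, was at -0.39 (adjusted p = 0.0177, and up to 0.0868 without KD replicate 5 or 6 or WT replicate 5) and -0.68. TNFAIP2, a gene that TNF induces (-0.27 and -0.89), FAM50A (0.31 and 1.08) and the histone gene H4C3 (0.30 and 1.24) passed with the term alone.

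**Figure D3:**
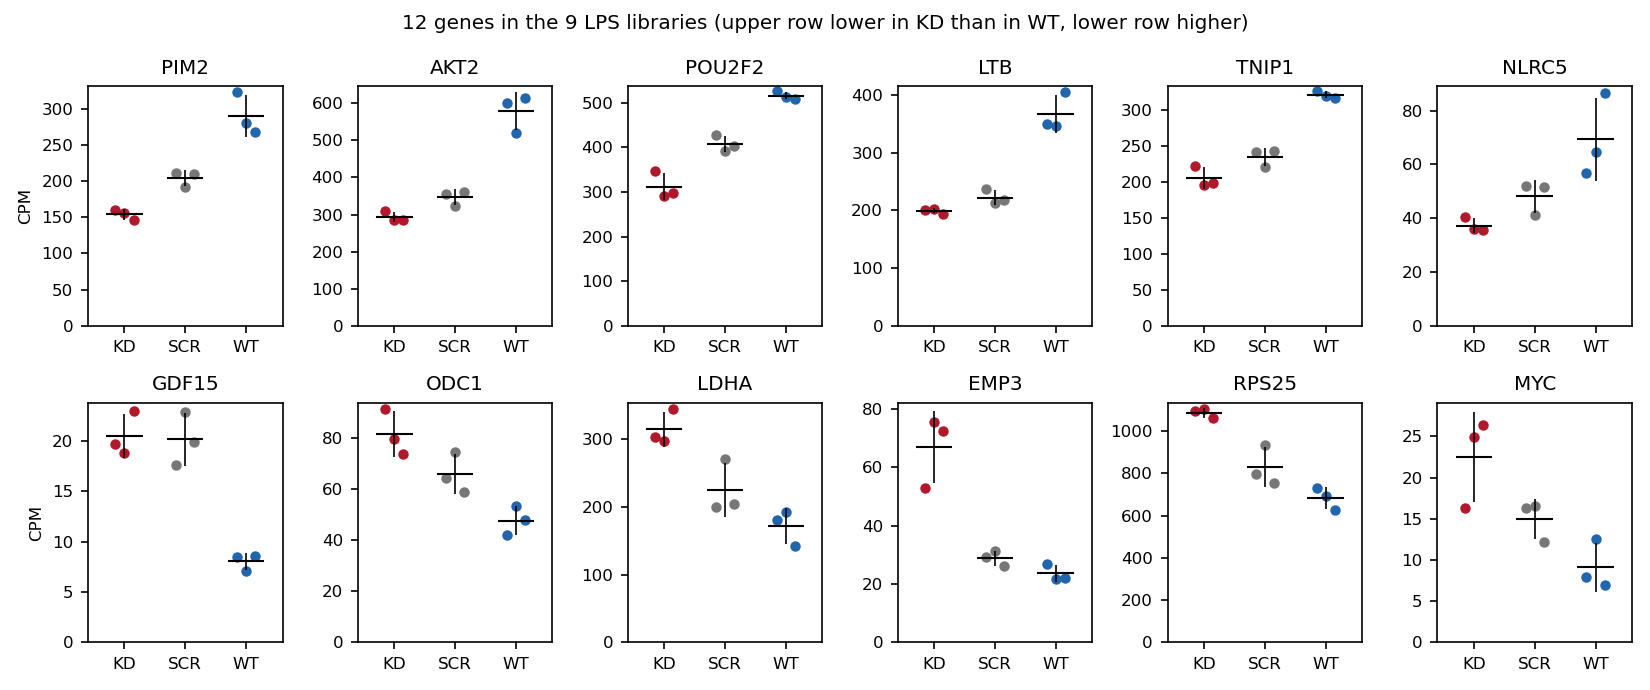
CPM (vertical axes, from 0) of 12 genes in the 9 LPS libraries, with points for libraries, a horizontal line for the mean and a vertical line for the SD of each group of 3. In every panel the KD and WT points do not overlap, which the choice of the genes with the smallest adjusted p required. SCR lay between KD and WT for PIM2 (191 to 211) and POU2F2 (391 to 427). It lay within or beside KD for GDF15 (17.7 to 22.9) and near WT for EMP3 (26.1 to 31.2).

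**Figure D4:**
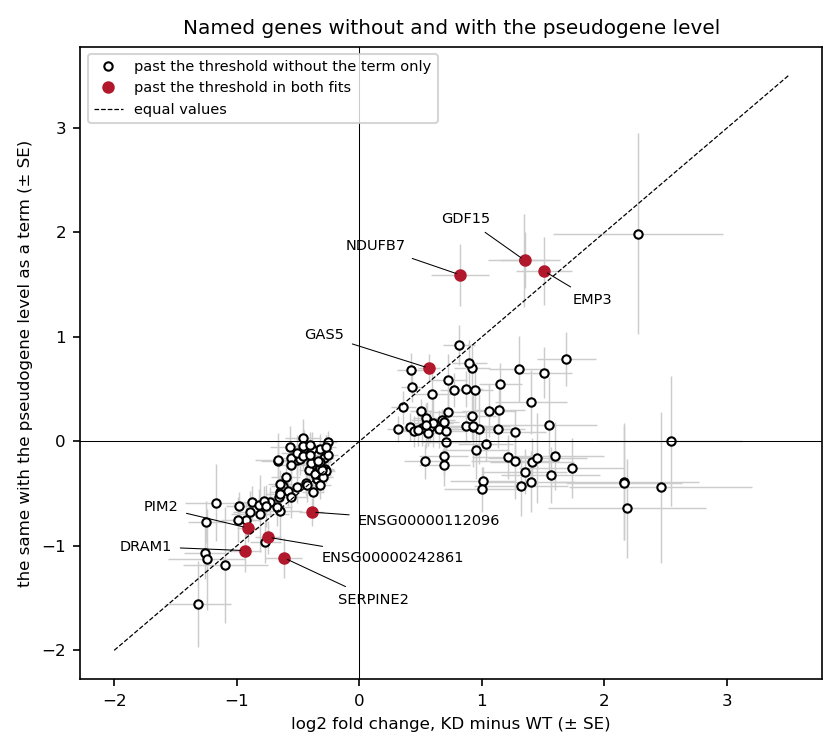
Log2 difference KD minus WT for the named genes past the threshold, without (horizontal axis) and with (vertical axis) the pseudogene level as a term, each with its SE. The 9 red points passed in both fits. Many lower genes lay near the dashed line of equal values or between it and 0, with PIM2 at -0.91 and -0.83. Some lay beyond that line, as SERPINE2 did at -0.62 and -1.11. Many higher genes moved toward or below 0, as CD9 did at 2.19 and -0.64.

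The trans-mediated list holds genes that the study linked to TRAFD1 from genetic variation in blood expression. The study also tested the list, with TRAFD1 added, as a set in the LPS libraries. It permuted a median test statistic for SCR against KD and set it beside WT against SCR. There it reported more differential expression than expected. That measure and comparison differ from the counts of single genes in KD against WT given here. All 41 were found in the table and 35 passed the low-count filter, of which 1 was higher and 3 lower. That is 2.86% higher against 6.29% of all genes and 8.57% lower against 4.55%. In either direction 11.4% passed, near the 10.8% of all genes. Their median log2 difference was -0.13, against 0.004 over all genes. PSTPIP2, an adaptor that links phosphatases to the cytoskeleton in macrophages, was at 84.1, 73.9 and 73.3 CPM in KD and 134, 144 and 161 CPM in WT (-0.93, SE 0.11, adjusted p = 0.000227). BATF2, an interferon-induced transcription factor, was at 49.0, 44.7 and 49.2 CPM in KD and 68.9, 72.4 and 85.2 CPM in WT (-0.66, SE 0.14, adjusted p = 0.00571). Both were lower in every KD library than in every WT library, as was the pseudogene GBP1P1 (-0.81, SE 0.24, adjusted p = 0.0321), whose counts can hold reads of GBP1. PARP9, an interferon-induced ADP-ribosyltransferase, was higher (1.01, SE 0.27, adjusted p = 0.0206). Without WT replicate 6 the calls of BATF2 (adjusted p = 0.051), PARP9 and GBP1P1 were lost; PARP9 (up to 0.117) was also lost without KD replicate 5, and GBP1P1 (up to 0.158) without KD replicate 4 or 5 or WT replicate 5. PARP9 was at -0.38 with the pseudogene term. Well-measured members that did not pass include CXCL10, a T cell chemokine (-0.57, SE 0.20, adjusted p = 0.072), and TAP1, the peptide transporter (-0.13, SE 0.08, adjusted p = 0.344).

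Among genes of NF-kB and its feedback, the members past the threshold were mostly lower. Of 28 tested NF-kB subunits and inhibitors, 7 were lower and 1 higher, and the list median was -0.25 (3 lower and 0 higher without KD replicate 5, and likewise without WT replicate 6). TNIP1, which holds NF-kB in check with the ubiquitin editor TNFAIP3, was at 223, 196 and 199 CPM in KD and 327, 320 and 318 CPM in WT (-0.64, SE 0.09, adjusted p = 0.000732). ZC3H12A, an RNase that degrades cytokine mRNAs, was at 138, 132 and 131 CPM in KD and 217, 204 and 218 CPM in WT (-0.67, SE 0.12, adjusted p = 0.00293). RELA, the main transactivating subunit, was at 95.5, 97.0 and 97.0 CPM in KD and 136, 134 and 169 CPM in WT (-0.60, SE 0.12, adjusted p = 0.00369). The 6 libraries fell into 2 separate ranges for each of these genes. NFKBIA, the inhibitor of NF-kB, was at 1145, 1110 and 1119 CPM in KD and 1448, 1351 and 1351 CPM in WT (-0.30, SE 0.09, adjusted p = 0.0334).

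The other 4 NF-kB members, named after their values were seen, were the ubiquitin ligase BIRC2 (-0.38), the subunit RELB (-0.57), the RNase N4BP1 (-0.38) and, as the 1 higher gene, the kinase CHUK (1.73, SE 0.43, adjusted p = 0.014). CHUK was at 60.0, 77.1 and 60.3 CPM in KD, 21.8, 25.2 and 12.2 CPM in WT and 37.6, 54.6 and 19.8 CPM in SCR, and was at -0.26 with the pseudogene term. NFKBIA, RELB and N4BP1 lost their calls with any of the 6 libraries left out (adjusted p up to 0.138), and BIRC2 and CHUK without KD replicate 5 or WT replicate 6 (up to 0.0918). Among 23 tested genes of LPS sensing, 1 was lower (4.35%, against 4.55% of all genes) and 0 higher. It was the kinase IRAK1 (-0.38, SE 0.08, adjusted p = 0.00704, and 0.0591 without WT replicate 6). TNIP1 was at -0.49, ZC3H12A at -0.63 and RELA at -0.34 with the pseudogene term.

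Of 22 cytokines and chemokines tested, 1 was higher and 1 lower, with a median of -0.003, and the 9.09% past the threshold was near the 10.8% of all genes. TNF was at 117, 103 and 123 CPM in KD and 132, 153 and 137 CPM in WT (-0.30, SE 0.14, adjusted p = 0.181). The KD libraries were the 3 lowest, by a margin that did not pass. IL1B (0.42, SE 0.21, adjusted p = 0.211) and the neutrophil chemokine CXCL8 (0.82, SE 0.36, adjusted p = 0.155) did not pass either. The WT libraries had responded to LPS, with TNF at 141 ± 11.1 CPM against 15.9 ± 3.01 CPM in medium and CXCL10 at 304 ± 14.6 CPM against 2.26 ± 1.61 CPM (SD, n = 3). CCL8, a monocyte chemokine, was higher at 19.9, 26.1 and 10.6 CPM in KD against 5.45, 5.43 and 1.76 CPM in WT (2.16, SE 0.47, adjusted p = 0.00803). It was at 15.01, 22.6 and 6.80 CPM in SCR and at -0.40 with the pseudogene term, and its call was lost without KD replicate 5 or WT replicate 6 (up to 0.0575). IL23A, a subunit of interleukin-23, was lower (-0.65, SE 0.19, adjusted p = 0.0294) and lost its call with any library left out (up to 0.102).

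Immediate early and MAP kinase feedback genes past the threshold were mostly higher. Of 28 tested, 6 were higher and 1 lower (21.4% higher against 6.29% of all genes), and the list had a median of 0.33, with 25 members above 0. Without KD replicate 5, and likewise without WT replicate 6, 3 were higher and 0 lower. MYC, a transcription factor of growth, was at 16.3, 25.0 and 26.4 CPM in KD and 7.88, 12.5 and 6.95 CPM in WT (1.30, SE 0.24, adjusted p = 0.00324). GADD45A, a growth arrest gene, was at 23.7, 27.4 and 26.0 CPM in KD and 14.9, 14.1 and 7.93 CPM in WT (1.06, SE 0.22, adjusted p = 0.00624). DUSP5, a phosphatase of ERK, was higher by 0.72 (SE 0.15, adjusted p = 0.00673). Outside the naming rule, FOS (1.40), the phosphatase DUSP10 (0.98) and the mRNA decay factor ZFP36 (0.93) were higher and the immediate early gene IER2 (-0.51) was lower. FOS was lost without KD replicate 5 or WT replicate 4 or 6, DUSP10 also without KD replicate 4, IER2 without KD replicate 5 or 6 or WT replicate 4 or 6, and ZFP36 with any library left out (adjusted p up to 0.176). In SCR, MYC was at 12.2 to 16.5 CPM, a range that overlapped both KD and WT. MYC was at 0.69 (adjusted p = 0.422) with the pseudogene term.

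Interferon-stimulated genes went both ways: of 39 tested, 4 were higher and 6 lower, with a median of -0.13. The 15.4% lower compares with 4.55% of all genes and 11.1% of the 4170 genes with the highest mean CPM. CMPK2, a mitochondrial nucleotide kinase, was at 313, 301 and 289 CPM in KD and 392, 406 and 427 CPM in WT (-0.44, SE 0.08, adjusted p = 0.00288). IFIT2, an RNA-binding antiviral protein, was at 157, 175 and 134 CPM in KD and 98.2, 119 and 101 CPM in WT (0.55, SE 0.13, adjusted p = 0.0122). The groups did not overlap for either gene, in opposite directions. IFI27 (-0.28), STAT2 (-0.30) and, outside the naming rule, HERC6 (-0.66), IFITM3 (-0.26) and MX1 (-0.27) were lower, while IFITM1 (1.27), IFI44 (0.69) and OAS3 (0.36) were higher. CMPK2 was the 1 member of the 10 that kept its call with each library left out. Without KD replicate 5 or WT replicate 6 the other 9 were lost (adjusted p up to 0.196), several of them also without other libraries. CMPK2 was at -0.40 and IFIT2 at 0.20 with the pseudogene term.

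Around the interferon response, NLRC5, the transactivator of MHC class I genes, was lower. It was at 40.4, 35.9 and 35.7 CPM in KD and 56.8, 64.5 and 86.6 CPM in WT (-0.89, SE 0.14, adjusted p = 0.00104). All KD libraries lay below all WT libraries, and SCR (41.1 to 51.8 CPM) lay between. TAP2, a subunit of the peptide transporter, was the other lower gene of the 20 class I genes tested (-0.34, SE 0.10, adjusted p = 0.0245), and 0 were higher. In a list of 13 class II genes only HLA-DRB1 passed (-0.51, SE 0.11, adjusted p = 0.00802), and the list median was -0.35. In either direction 10.0% of the class I and 7.69% of the class II list passed, against 10.8% of all genes. Of 22 JAK-STAT genes 3 were lower: PTPN1, STAT5A, a transducer of cytokine signals at 30.3 ± 1.85 CPM in KD and 51.5 ± 3.35 CPM in WT (-0.77, SE 0.13, adjusted p = 0.00172), and STAT2. IRF1, an interferon-regulated transcription factor, was at 98.7, 97.4 and 95.8 CPM in KD and 143, 145 and 143 CPM in WT (-0.56, SE 0.10, adjusted p = 0.00293). TRIM25, an activator of the RNA sensor RIG-I, was lower (-0.41, SE 0.08, adjusted p = 0.00341), as were ADAR, an RNA-editing enzyme (-0.27, adjusted p = 0.0183), and, outside the naming rule, the DNA sensor AIM2 (-1.09, adjusted p = 0.047). CGAS, another DNA sensor, was higher (1.00, SE 0.30, adjusted p = 0.0384) and at -0.46 with the pseudogene term. TAP2 was lost without KD replicate 5 or 6 or WT replicate 4, HLA-DRB1 without KD replicate 5 or WT replicate 6, ADAR without KD replicate 5 or 6 or WT replicate 5 or 6, CGAS with any library except WT replicate 5 left out, and STAT2 and AIM2 with any (adjusted p up to 0.197). NLRC5 was at -0.67 (adjusted p = 0.18) and STAT5A at -0.96 (adjusted p = 0.0533) with the pseudogene term.

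In the list of PI3K, AKT and PIM kinases, 5 of 28 were lower (17.86%) and 3 higher (10.7%), with a median of 0.02. Beside PIM2 and AKT2, PIK3CD, the leukocyte PI3K catalytic subunit, was at 350, 317 and 293 CPM in KD and 466, 485 and 527 CPM in WT (-0.62, SE 0.10, adjusted p = 0.00104). Outside the naming rule, PIK3R5, a regulator of PI3K gamma (-0.76), and PIM3 (-0.32) were lower, and SGK1 (1.34), RHEB (0.48) and AKT1 (0.95) were higher. AKT1 and AKT2 thus differed in opposite directions, with AKT1 at 61.1, 68.8 and 53.1 CPM in KD and 38.2, 38.4 and 18.1 CPM in WT. AKT1 was lost without KD replicate 4 or 5 or WT replicate 6 (adjusted p up to 0.169), RHEB without KD replicate 5 or WT replicate 6 (up to 0.0883) and PIM3 with any library except KD replicate 4 left out (up to 0.0988). AKT1 was at -0.09 with the pseudogene term. In the BCL2 family, CFLAR, an inhibitor of caspase-8, was lower (-0.51, SE 0.10, adjusted p = 0.00434), as was BID, and BCL2L2 was higher; the last 2 lost their calls with libraries left out (adjusted p up to 0.154), BID with any and BCL2L2 without KD replicate 5 or WT replicate 5 or 6.

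Myeloid transcription factors had 7 higher and 5 lower members of 26 (46.2% past the threshold), with a median of 0.004, and this count became 1 higher and 3 lower without WT replicate 6 and 3 and 3 without KD replicate 5. POU2F2 and IRF1 led the lower members. KLF2, a factor of quiescence, was at 27.2, 34.8 and 27.8 CPM in KD and 18.97, 16.7 and 11.8 CPM in WT (0.92, SE 0.19, adjusted p = 0.00634; 0.051 without WT replicate 6). IRF8, a factor of monocyte development named after its values were seen, was at 215, 247 and 181 CPM in KD, 98.2, 112 and 47.1 CPM in WT and 161, 204 and 99.1 CPM in SCR (1.32, SE 0.38, adjusted p = 0.0314). Its call was lost without KD replicate 4 or 5 or WT replicate 4 or 6 (up to 0.173), and it was at -0.42 with the pseudogene term. Of 22 integrin and adhesion genes 3 were lower and 0 higher: SPN, the sialoglycoprotein CD43, at 302, 285 and 299 CPM in KD and 483, 437 and 469 CPM in WT (-0.65, SE 0.10, adjusted p = 0.000866), ARHGAP9, a GTPase-activating protein (-0.59, SE 0.09, adjusted p = 0.00136), and ITGB2, the beta chain of leukocyte integrins (-0.32, SE 0.09, adjusted p = 0.0264). ITGB2 lost its call with any library left out (up to 0.117). ELANE, neutrophil elastase, was the 1 monocyte marker past the threshold (0.42, SE 0.12, adjusted p = 0.0242), and it too was lost with any library left out (up to 0.138).

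Among translation genes, the members past the threshold were mostly higher. Of 77 cytosolic ribosomal proteins 19 were higher and 2 lower (24.7% higher against 6.29%), with a median of 0.09 and 55 members above 0. Of the 4170 genes with the highest mean CPM, 10.0% were higher. RPS25 was at 1097, 1105 and 1061 CPM in KD and 729, 695 and 626 CPM in WT, and the 2 ranges lay far apart. RPS27 (0.50, SE 0.09, adjusted p = 0.00226) and RPL4 (0.69, SE 0.12, adjusted p = 0.00274) followed, and RPS28 (-0.40) and RPS27A (-0.32), named after their values were seen, were lower. Without WT replicate 6 only 4 of the 77 were higher. Of 35 translation factors 8 were higher and 1, EIF3D (-0.40), lower, although the list median was -0.02, and 4 were higher and 0 lower without WT replicate 6. EIF4EBP1, the repressor of cap-dependent translation, was at 53.3, 49.7 and 47.8 CPM in KD, 31.2, 30.8 and 23.5 CPM in WT and 29.3 to 33.4 CPM in SCR (0.82, SE 0.13, adjusted p = 0.00116; 0.92 with the pseudogene term, adjusted p = 0.0603). EIF3H (0.54, SE 0.10, adjusted p = 0.00297) and EIF4A2 (0.87, SE 0.16, adjusted p = 0.00324) were higher as well. RPS28 was lost without KD replicate 5 or WT replicate 6, and RPS27A and EIF3D also without KD replicate 6 or WT replicate 4 (adjusted p up to 0.153).

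In the integrated stress response and the unfolded protein response, most members did not pass, and those that did were mostly higher. Of 33 tested genes of the former, 5 were higher and 0 lower, with GDF15, the arginine transporter SLC7A1 (0.43, SE 0.09, adjusted p = 0.00652) and the folate enzyme MTHFD2 (0.41, SE 0.10, adjusted p = 0.0129) at the head and a median of 0.02. Of 28 genes of the latter, 7 were higher and 1 lower. Without KD replicate 5, and likewise without WT replicate 6, the higher members were 2 and 3 in these lists, with 0 lower. ATF6, its membrane-bound sensor, was at 61.2, 70.0 and 71.6 CPM in KD and 43.4, 42.2 and 37.1 CPM in WT (0.72, SE 0.14, adjusted p = 0.00386), and EDEM1 (1.13, SE 0.22) and HERPUD1 (1.03, SE 0.23), which act in degradation of misfolded proteins, were also higher. HSPA5, the ER chaperone that this response classically induces, was the lower member, named after its values were seen (1901, 1789 and 1945 CPM in KD, 2622, 2456 and 2666 CPM in WT; -0.46, SE 0.10, adjusted p = 0.00802). Heat shock genes were split, 2 higher and 3 lower of 24 (1 and 0 without either of those libraries), with HSPA1A at 0.93 (SE 0.19, adjusted p = 0.00498) and BAG3 at 1.21 (SE 0.29, adjusted p = 0.0126). Of 24 p53 targets, 3 were higher, GDF15, GADD45A and CCNG1 (0.71, SE 0.20, adjusted p = 0.0291), and 0 lower. Without WT replicate 6 the calls of MTHFD2, HERPUD1, HSPA5, BAG3 and CCNG1 were lost, and without KD replicate 5 those of MTHFD2, HSPA5, BAG3 and CCNG1 (adjusted p up to 0.156); CCNG1 was also lost without KD replicate 6 or WT replicate 4. ATF6 was at 0.28 and HERPUD1 at -0.02 with the pseudogene term.

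Glycolysis and hypoxia genes had a list median of 0.25, with 6 higher and 1 lower of 32. Without KD replicate 5, and likewise without WT replicate 6, 2 were higher and 0 lower. HK2, which phosphorylates glucose, was at 19.5, 28.1 and 27.6 CPM in KD and 8.66, 11.4 and 8.42 CPM in WT (1.40, SE 0.30, adjusted p = 0.0069). The lactate exporter SLC16A3 was the lower gene, at 170, 137 and 138 CPM in KD and 208, 215 and 232 CPM in WT (-0.56, SE 0.12, adjusted p = 0.00838), lost without KD replicate 5 or WT replicate 6 (up to 0.0574). LDHA and HK2 thus differed in the opposite direction to SLC16A3. Of 16 polyamine genes 3 were higher and 0 lower: ODC1, its antizyme OAZ1 (0.58, SE 0.13, adjusted p = 0.0101) and ATP13A3 (0.69, SE 0.21, adjusted p = 0.0383). The respiratory chain held 5 higher (8.33%) and 4 lower (6.67%) of 60, against 6.29% and 4.55% of all genes. Without either of those libraries it held 1 and 0. COX7A2 was at 0.56 (SE 0.12, adjusted p = 0.00622) and NDUFB3 at 1.598 (SE 0.40, adjusted p = 0.0152). OAZ1 and NDUFB3 were lost without KD replicate 5 or WT replicate 6, and ATP13A3 also without KD or WT replicate 4 (adjusted p up to 0.199). LDHA was at 0.50, HK2 at 0.38 and NDUFB3 at -0.14 with the pseudogene term.

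In the remaining lists the members past the threshold were mixed in role. Of 33 proteasome genes 6 were higher and 3 lower, led by PSMD6 (1.27, SE 0.26, adjusted p = 0.00504). Of 40 S phase genes 3 were higher and 0 lower, led by the histone mRNA-binding protein SLBP (1.14, SE 0.21, adjusted p = 0.00332), and of 40 mitosis genes 4 were higher and 1 lower, led by the checkpoint gene MAD2L1 (0.59, SE 0.15, adjusted p = 0.0177). Lysosome genes (3 higher, 2 lower of 41), ribosome biogenesis (2 and 1 of 40), cholesterol and fatty acid synthesis (2 and 2 of 30), NRF2 and ferritin genes (1 and 2 of 23) and the RNA interference machinery (0 and 1 of 19) completed the set. In either direction 27.3% of the proteasome list passed, against 10.8% of all genes. The shares were 7.5% for S phase, 12.5% for mitosis, 12.2% for the lysosome and 7.5% for ribosome biogenesis. They were 13.3% for cholesterol and fatty acid synthesis, 13.0% for NRF2 and ferritin genes and 5.26% for RNA interference. Apart from the proteasome, these shares lay near or under that of all genes. Without WT replicate 6 the proteasome list had 1 higher and 0 lower, S phase 1 and 0, and mitosis and the lysosome, ribosome biogenesis, cholesterol and fatty acid, NRF2 and RNA interference lists 0 and 0. Without KD replicate 5 the proteasome list had 3 higher and 1 lower, and the mitosis list 0 of either. In the last of these lists the lower gene was DROSHA, which cuts primary microRNAs (-0.32, SE 0.09, adjusted p = 0.0254), while in the NRF2 list TXN, thioredoxin, was higher (415, 459 and 379 CPM in KD, 170, 179 and 75.1 CPM in WT; 1.56, SE 0.40, adjusted p = 0.0183). MAD2L1 was lost without KD replicate 5 or 6 or WT replicate 4 or 6, DROSHA with any library except WT replicate 5 left out, and TXN without KD replicate 5 or WT replicate 6 (adjusted p up to 0.149). TXN was at -0.32 with the pseudogene term.

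**Figure D5:**
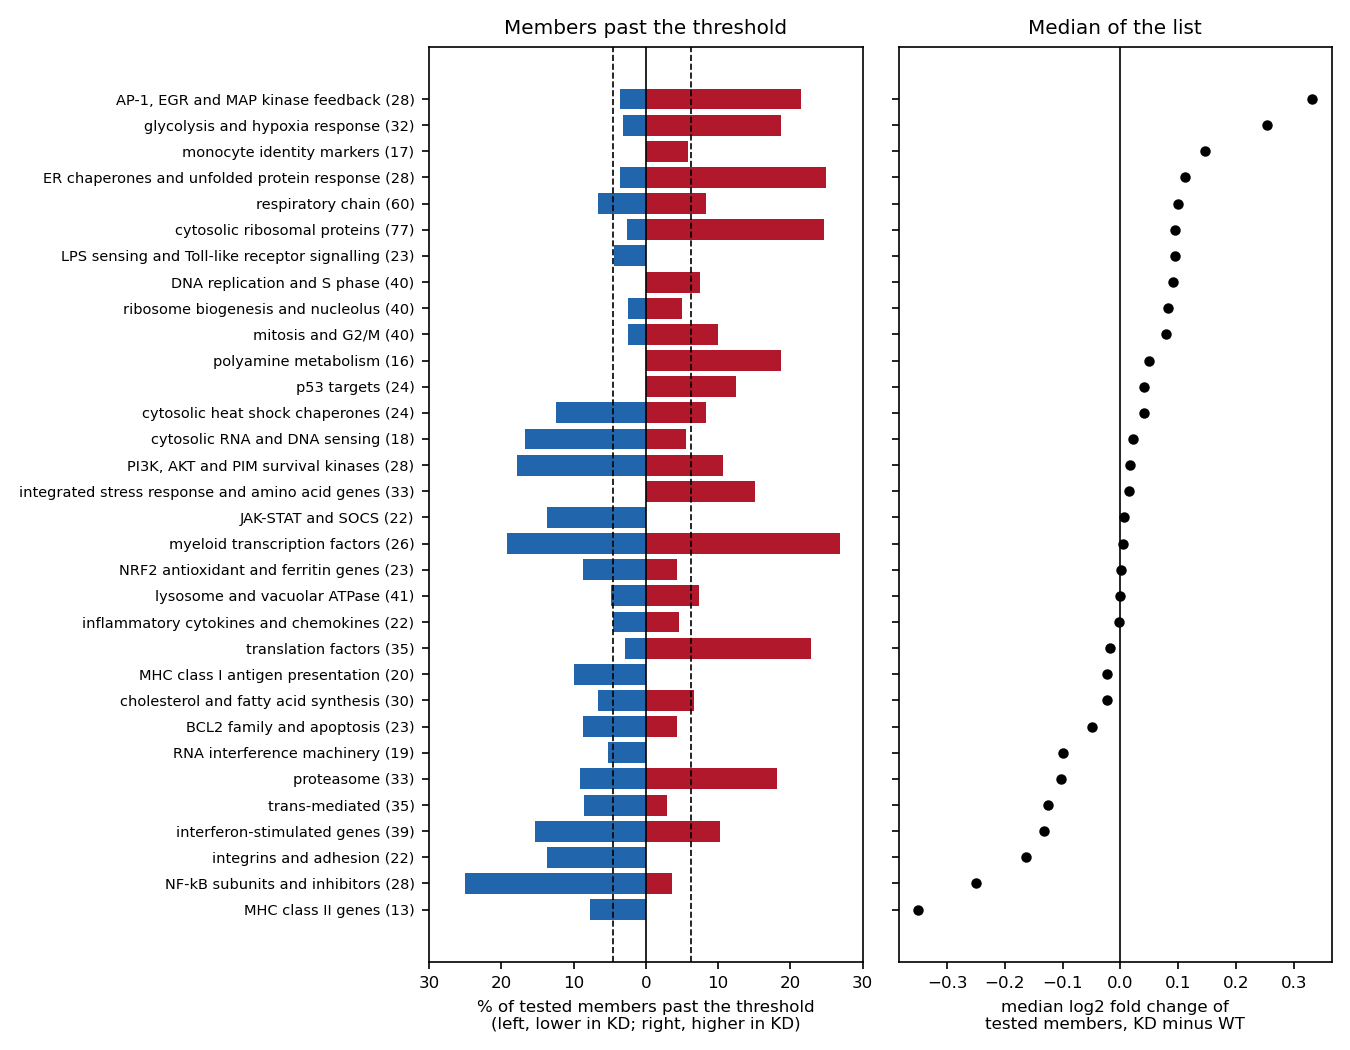
Left, share of tested members past the threshold for each list with 10 or more tested members (number in brackets), lower in KD to the left and higher to the right; dashed lines mark the shares over all genes, 4.55% lower and 6.29% higher. Right, median log2 difference of each list, KD minus WT: AP-1, EGR and MAP kinase feedback genes had the highest, 0.33, and MHC class II genes the lowest, -0.35.

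The split into higher and lower genes is given here by gene type and base composition, with no test. Of 12490 protein-coding genes 6.47% were higher and 5.05% lower. Of 1418 processed pseudogenes 13.9% were higher and 1.76% lower. Of 456 pseudogenes of any type that derive from ribosomal proteins, 17.1% were higher and 1.97% lower. Of 1469 long non-coding RNAs 1.16% were higher and 3.74% lower. By GC content of the exons, the 4059 genes with the lowest GC had 8.23% higher and 2.49% lower, and the 4059 with the highest 3.23% higher and 6.16% lower. Offsets for GC content in each library left 2027 genes past the threshold, 1030 higher and 997 lower.

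Genes with a match of the guide seed in the 3-prime UTR are set here beside genes without one, with no test. The 7 bases TTAACAA, searched on the transcript strand, occur in the annotated 3-prime UTR of 2784 of 19275 coding genes. Among tested genes, 94 of 2042 with a match were lower in KD (4.603%), against 533 of 10402 without one (5.12%), and 151 (7.39%) and 654 (6.29%) were higher. The median log2 difference was 0.07 with a match and 0.01 without. Against SCR, which carried another siRNA, the medians were 0.01 and 0.02. UTRs with a match are longer and poorer in GC, with a median of 3228 bases and 37.1% GC against 1058 bases and 43.9%, and among the UTRs poorest in GC the medians were 0.13 for 764 genes with and 0.16 for 2347 without a match. Among the UTRs richest in GC the order was the other way: 17 of 111 genes with a match were lower (15.3%, median -0.17), against 189 of 3000 without one (6.30%, median -0.08). In the 2 groups of middle GC, 4.58% and 6.56% of genes with a match and 4.43% and 6.81% of those without were lower. By UTR length, 3.72% of genes with a match and 4.93% without were lower among the longest UTRs. Among the shortest these shares were 7.81% and 5.01%. In the 2 groups of middle length they were 5.67% and 5.66% with a match and 5.24% and 5.27% without.

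The 4 genes past the threshold and lower in KD that held the most matches, ordered among ties by p, were PPIP5K2, an inositol phosphate kinase, BMS1, a GTPase of ribosome assembly, TTL, which adds tyrosine to tubulin, and CFLAR. One window of GRCh37 for each of the first 3 shows the match in capitals, read on the plus strand.
PPIP5K2, match at chr5:102537850-102537856: tgctgcaatatTTAACAActggagtatta
BMS1, match at chr10:43329461-43329467: tctgaaatattTTAACAAtgtttatagaa
TTL, match at chr2:113297529-113297535: taggaataaatTTAACAAaagttcatttc
PPIP5K2, with 3 matches, was at 16.7, 16.6 and 18.8 CPM in KD, 25.7, 27.2 and 23.9 CPM in WT and 27.4, 24.0 and 24.9 CPM in SCR (-0.56, SE 0.13, adjusted p = 0.0107; 0.0558 without KD replicate 5). BMS1, also with 3, was at 99.97, 92.9 and 94.4 CPM in KD, 123, 111 and 120.5 CPM in WT and 114 to 123 CPM in SCR (-0.30, SE 0.09, adjusted p = 0.0415; lost with any library except WT replicate 5 left out, up to 0.152). For both, the SCR libraries lay with WT and not with KD. TTL (-0.65, SE 0.11, adjusted p = 0.00238) had SCR values of 53.6 to 60.9 CPM between KD and WT, and CFLAR had SCR values of 130 to 149 CPM that overlapped WT (143 to 166 CPM). Against SCR the 4 differences were -0.54, -0.32, -0.40 and -0.39, with adjusted p from 0.138 to 0.211, and with the pseudogene term the KD minus WT differences were -0.53, -0.27, -0.50 and -0.44. These genes were chosen for being lower, so their direction is no evidence of an effect of the seed.

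Comparing KD with SCR instead of WT, both with an siRNA and LPS, 0 genes passed with edgeR, 1963 had an unadjusted p under 0.05 (11.8%), and DESeq2 on all 18 libraries called 142 and on the 6 libraries of that comparison 619. The 2 comparisons share the KD libraries, so values of single genes are given side by side. With AKT2, KD minus WT was -0.98 and KD minus SCR -0.24 (SE 0.11). LTB gave -0.88 and -0.16 (SE 0.12), and GPD2 -0.66 and -0.06 (SE 0.08). These genes were close to KD in cells with the non-targeting siRNA. RPRD1B, by contrast, gave 1.51 and 0.98 (SE 0.22), PPP1R10 -0.82 and -0.57 (SE 0.11), and EIF4EBP1 0.82 and 0.66. Whether the KD difference from WT exceeds that from SCR is the difference between SCR and WT, which for AKT2 was -0.74 (adjusted p = 0.00724), for LTB -0.72 (adjusted p = 0.00885), for GPD2 -0.60 (adjusted p = 0.00724), for GDF15 1.33 (adjusted p = 0.00724), for RPRD1B 0.53 (adjusted p = 0.315) and for PPP1R10 -0.25 (adjusted p = 0.323). The first 4 of these lost their calls without SCR replicate 5, while the differences moved little, to -0.69 for AKT2 and LTB (adjusted p = 0.0682 and 0.0974), -0.57 for GPD2 and 1.23 for GDF15 (adjusted p = 0.0682 for both). LTB was also lost without SCR or WT replicate 6 (up to 0.113). In the model with the pseudogene term, SCR minus WT still passed for AKT2 (-0.57, adjusted p = 0.0207), GPD2 (-0.54, adjusted p = 0.0207) and GDF15 (1.52, adjusted p = 0.0018), and LTB was at -0.58 (adjusted p = 0.0528).

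The test of whether the difference between KD and WT itself depended on LPS found 60 genes, 0.36% of those tested, 10 (0.06%) with a more positive and 50 (0.3%) with a more negative difference under LPS. TNF had the smallest adjusted p of the genes named here: KD minus WT was 1.45 in medium, where KD held 43.2 ± 7.53 CPM and WT 15.9 ± 3.01 CPM (SD, n = 3), and -0.30 with LPS, a change of -1.76 (SE 0.21, adjusted p = 0.000101). ZC3H12A went from 0.47 in medium to -0.67 with LPS (change -1.14, SE 0.18, adjusted p = 0.00502) and TNIP1 from 0.14 to -0.64 (-0.78, SE 0.13, adjusted p = 0.00725). PSTPIP2 went from -0.04 to -0.93 and LTB from 0.00 to -0.88. AKT2, in contrast, gave -0.97 in medium and -0.98 with LPS (change -0.01, SE 0.15, adjusted p = 0.983), and PIM2 (-0.43 and -0.91) gave a change of -0.49 (adjusted p = 0.104). Of the genes past the threshold here, TNF, ZC3H12A and TNIP1 kept their calls with each of the 12 libraries left out in turn. PSTPIP2 lost its call without KD replicate 5 or 6 or WT replicate 6 with LPS (adjusted p up to 0.0557), and LTB without those libraries, KD replicate 2 or WT replicate 1 in medium (up to 0.0821). The count of 60 became 1313 without KD replicate 1 in medium, the library with the high pseudogene level, and its direction turned, with 953 differences more positive and 360 more negative under LPS.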

How the data were processed

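RNA of THP-1 cells was read from the 3-prime end with a QuantSeq kit. The authors aligned the reads with HISAT to GRCh37 and counted them with featureCounts per Ensembl gene, limited to a window at 1 end of each gene, and deposited raw counts, 1 column for each of 18 libraries. Versions are not given in the submitters' processing notes. Total counts per library ran from 8206023 to 22344279. All value columns were used.

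Of 63677 genes, 16678 passed the low-count filter of edgeR 4.0.16 (filterByExpr by group, in R 4.3.3). Counts were normalised by TMM and fitted with 1 mean per group over all 18 libraries, and contrasts were tested with the edgeR quasi-likelihood F test, two-sided, with Benjamini-Hochberg adjustment over all genes tested and a threshold of 0.05. CPM, log2 differences and SE come from the same fit. The scripts were checked on simulated data. Alternatives were DESeq2 1.42.0, other scalings and filters, a replicate block, GC offsets and each library left out. A term for the pseudogene level, and dropping KD replicate 1 in medium and SCR replicate 5 with LPS, were added after the data were seen.

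Genes are named by a rule: TRAFD1, the genes with the smallest adjusted p or the largest difference in each direction, up to 3 members of each gene list, the trans-mediated genes past the threshold, 5 LPS response genes, and genes with seed matches. Those with the smallest adjusted p were taken only from genes past the threshold whose KD and WT libraries did not overlap. Others are said to be named after their values were seen, as are those outside the naming rule. The members and lists were chosen with earlier results of these data known. Some genes and 1 sequence that the rule selects are not reported here. Symbols, exons and 3-prime UTRs come from GENCODE on GRCh37.

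Same-numbered KD and WT libraries with LPS did not deviate together (Pearson correlations across genes of -0.07, 0.04 and -0.01), nor did those of KD and SCR (-0.09, 0.09 and 0.07), whereas those of SCR and WT did (0.26, 0.16 and 0.25). The numbers were therefore taken to pair SCR and WT, as a feature of the data that the labels do not state.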

Additional observations from a re-analysis of the deposited data

Results flagged for a closer look

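For 9 of the genes examined one by one, the difference between KD and WT depended on LPS, by the edgeR test of the difference itself (LPS minus medium, log2 scale, n = 3 per group). TNF changed by -1.76 (adjusted p = 0.000101), from 1.45 in medium to -0.30 with LPS. RELB changed by -1.32 (adjusted p = 0.0113), from 0.76 to -0.57, and ZC3H12A by -1.14 (adjusted p = 0.00502). The 3 were higher in KD in medium (adjusted p of 1.1e-05, 0.00534 and 0.0256), and with LPS RELB and ZC3H12A were lower while TNF did not pass.

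ENSG00000112096 changed by -0.91 (adjusted p = 0.00502), from 0.52 to -0.39, and FTH1, the heavy chain of ferritin, by -0.60 (adjusted p = 0.0164), from 0.31 to -0.29. PSTPIP2 changed by -0.89 (adjusted p = 0.0122), LTB by -0.88 (adjusted p = 0.0176), TNIP1 by -0.78 (adjusted p = 0.00725) and GPD2 by -0.55 (adjusted p = 0.0466), each from between -0.11 and 0.14 in medium. The change of RELB lost its call without KD replicate 5 with LPS (adjusted p = 0.0551), that of GPD2 with any of the 12 libraries except KD replicate 1 in medium left out (up to 0.143), and that of FTH1 without KD replicate 5 or 6 or WT replicate 5 or 6 with LPS or KD replicate 2 in medium (up to 0.0588). With the pseudogene term TNF (-1.67), ZC3H12A (-1.10) and ENSG00000112096 (-1.12) passed, and the other 6 had adjusted p from 0.0558 (TNIP1) to 0.263 (GPD2). KD replicate 1 in medium, which carries the high pseudogene level, enters all 9 values. Without that library all 9 changes stayed past the threshold, with adjusted p from 0.00019 (TNF) to 0.00907 (GPD2). The changes of TNF (-1.72), ZC3H12A (-1.09) and ENSG00000112096 (-0.79) were then smaller in size. Those of the other 6 were larger, as for RELB (-1.51) and GPD2 (-0.59). The part of this library was not tested further.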

How the results depend on the processing

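The 1808 genes past the threshold between KD and WT became 2949 with DESeq2 and 3235 with edgeR on the 6 libraries alone, 12 with the pseudogene term, and 376 (without WT replicate 6) to 1428 (without WT replicate 5) with 1 library left out; other scalings, no filter, DESeq2 on all libraries, GC offsets and 2 libraries dropped gave 1854 to 2416. Without WT replicate 6, 42.6% of the calls were higher, against 58.0%. The replicate block, on numbers that pair no KD library, gave 2566 (2686 with GC offsets). The 60 genes whose difference depended on LPS (10 more positive and 50 more negative under it) became 729 without a filter (536 and 193), 275 and 130 with DESeq2 on all and on the contrast's libraries, 23 with edgeR on the latter, 547 with the replicate block (368 and 179; 547 also with GC offsets, 328 and 219), 23 with the pseudogene term, 1358 with 2 libraries dropped (995 and 363), and 21 to 1313 with 1 left out (953 and 360 without KD replicate 1 in medium, 176 without WT replicate 2 in medium). Between KD and SCR the count of 0 with edgeR (1963 at an unadjusted p under 0.05) became 425 without a filter, 142 and 619 with DESeq2, 161 with edgeR on those 6 libraries, 85 with the block, 15 with GC offsets, 148 with both and 162 with 2 libraries dropped. The block changed none of the SCR minus WT calls given for 6 genes, where the numbers pair the libraries. TRAFD1 ran from -0.45 to -0.08 with 1 library left out, with no call under any alternative. Of 143 single genes past the threshold, 58 stayed past it with each library left out and 9 with the pseudogene term, where 120 kept their direction. The list of reversed genes that follows also holds COL1A1, IL1B and CXCL8, which were not past the threshold without the term. The term reversed ZSCAN25 (-0.44), CD9 (-0.64), GRAMD4 (-0.39), PARP9 (-0.38), CCL8 (-0.40), CGAS (-0.46), CCNG1 (-0.00387), HERPUD1 (-0.0240), BAG3 (-0.15), TXN (-0.32), ATP13A3 (-0.23), UBTF (0.0303), NDUFB3 (-0.14), IDI1 (-0.19), TYMS (-0.19), CTSL (-0.29), COL1A1 (0.22), IL1B (-0.19), CXCL8 (-0.84), CHUK (-0.26), FOS (-0.38), AKT1 (-0.0857), IFITM1 (-0.19), IFI44 (-0.14), NR4A1 (-0.16) and IRF8 (-0.42), and the cause was not tested.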
